A study of Schizosaccharomyces pombe with 8 samples.

Results

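RNA from 2 libraries of the fission yeast Schizosaccharomyces pombe labelled as carrying a deletion of nht1 (genotype nht1-delta) was compared with RNA from 2 wild-type libraries (genotype WT), which makes 4 of the 8 libraries of the series. The other 4 come from strains with the genotypes iec1-delta and iec5-delta, 2 libraries each. The design text of the series speaks of 3 ino80 mutants, and its title of INO80 and the inheritance of heterochromatin. The medium of all cultures was YEA, which is rich, and cells were collected at mid-log phase. The labels give 1 strain number per genotype, so each group is a single strain, and they do not say whether its 2 libraries came from separate cultures. The p-values therefore measure only the spread between these libraries. No further allele is given for any of the strains.

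INO80 is a chromatin remodelling complex that uses ATP to slide nucleosomes and to exchange the histone variant H2A.Z, and it is conserved from yeast to human. Nht1 is a subunit with an HMG box, a fold that binds DNA, and it is found in the fission yeast form of the complex together with the zinc-finger subunit Iec1 and with Iec5. In yeasts INO80 is known for work at the first nucleosomes of genes, in replication and in DNA repair.

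The counts cover 5137 coding and 1528 noncoding features. Coding totals were 3235768 and 2762696 counts in the nht1 libraries, against 3273405 and 3264745 counts in wild type. Levels are given as CPM, in which each count is divided by the TMM-scaled coding total of its library, and 3 counts equal 0.906 to 1.09 CPM in these 4 libraries. Calls come from the edgeR quasi-likelihood test in 1 fit of all 8 libraries, at a Benjamini-Hochberg adjusted p under 0.05 over all features tested. The libraries were made with a strand-specific kit, but no source used here gives the strand setting of the counting, and the values bear on it. For 338 noncoding features that lie with at least 80% of their length inside 1 coding gene on the other strand, counts per kilobase were close to those of that gene, with a median log2 ratio of 0.11. The 283 coding genes covered over 95% by coding genes of the other strand had a median of 0 counts per kilobase, against 1057 for the 2523 coding genes with no such neighbour. A gene and its antisense partner cannot be told apart in these counts. Noncoding features opposite a gene, such as SPNCRNA.793 opposite obr1 and SPNCRNA.1421 opposite ppk31, are not all named below. Overlaps with another coding gene are named where a gene is first described. Of the genes named without that remark, apt1, arg3, clr4, cnp1, gal7, iec5, lem2, naa40, pgi1, rrn10, ser1, SPBPB10D8.02c, tps1 and ure2 also overlap a coding gene, from 0.8% of the length of arg3 and pgi1 to 54.4% of clr4 and 55.2% of iec5, and are uncertain to that extent.

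The reads of nht1 itself (SPAC10F6.08c, chromosome I, 1219667 to 1220847 on build ASM294v2) were lowest in the nht1 libraries but were not lost. The gene had 24.9 and 34.9 CPM in the nht1 libraries, against 48.6 and 41.6 CPM in wild type. The 2 nht1 libraries were the lowest of all 8, since the iec1 libraries had 41.3 and 58.4 CPM and the iec5 libraries 40.2 and 52.5 CPM. The log2 fold change of -0.60 (SE 0.24) did not pass the edgeR test (adjusted p = 0.212), and it ran from -0.86 to -0.37 when 1 library was left out. Of the counted length, 13.1% lies outside the coding sequence, and no source used here gives the part that was removed. The noncoding feature SPNCRNA.554 (1219252 to 1220071) lies on the other strand, overlaps nht1, and had 35.5 and 41.8 CPM in the nht1 libraries, against 42 and 33.3 CPM in wild type (log2 fold change 0.04, SE 0.22). Reads of the 2 features cannot be told apart where they overlap. The reads of the gene therefore do not mark the deletion, and the name nht1 libraries below is the label. The neighbouring gene mug94, known from a meiotic expression screen and next to nht1 on its downstream side, had 47.5 and 52.0 CPM in the nht1 libraries, against 25.7 and 25.1 CPM in wild type, and no other group reached 30 CPM. Its log2 fold change was 0.97 (SE 0.26, edgeR adjusted p = 0.0468), and the call ended without any 1 of the 4 libraries (adjusted p = 0.155 to 0.271). The next gene, vip1, an RNA-binding protein, had 263 and 249.5 CPM in the nht1 libraries, against 150 and 169 CPM in wild type (log2 fold change 0.68, SE 0.19, edgeR adjusted p = 0.0566). On the other side of nht1, the cohesin subunit gene psm3 had 251 and 233 CPM in the nht1 libraries, against 250 and 268 CPM in wild type.

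More genes rose than fell in the nht1 libraries. Of 4652 coding genes tested, 146 (3.14%) rose and 46 (0.989%) fell, 192 (4.13%) in all, while the median log2 fold change of all tested genes was 0.02. The rises had a median log2 fold change of 0.87, and 54 of them were at or above 1. The falls had a median size of 0.76, and 12 of them were at or above 1 in size. Genes that rose had a median wild-type level of 56.8 CPM and genes that fell one of 192 CPM, beside 76.1 CPM over all genes tested. Every called gene had both nht1 libraries on one side of both wild-type libraries, which also held for 26.8% (above) and 21% (below) of all genes tested. The share called was 3.7% of 2106 genes on chromosome I, 3.9% of 1691 on chromosome II and 5.71% of 841 on chromosome III, and none of 8 on the mitochondrial genome. Another coding gene overlaps 54 of the genes that rose and 22 of those that fell. Tested alone, the 2411 genes with no such overlap gave 133 calls (5.52%). With 2 libraries a group, 38 calls (28 up and 10 down) also held in each of the 4 fits that left out 1 library, and the number of calls was 62 without nht1 replicate 1, 52 without nht1 replicate 2, 90 without wild-type replicate 1 and 70 without wild-type replicate 2. For most genes named outside these 38, the adjusted p in those fits stands beside the call or its group. The largest fall, that of the mating pheromone gene mfm1, with 1.26 and 0.364 CPM in the nht1 libraries against 7.25 and 4.28 CPM in wild type (-2.72), ended without any 1 of the 4 libraries (edgeR adjusted p = 0.0953 to 0.31) and under DESeq2 (0.09).

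**Figure D1:**
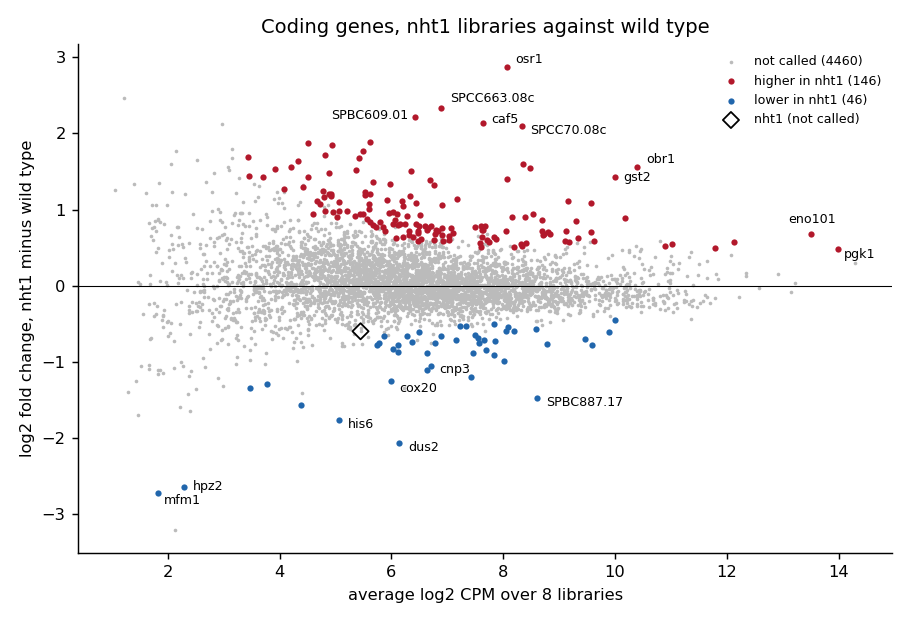
Each point is 1 of 4652 coding genes, with its average log2 CPM over the 8 libraries on the x axis and its log2 fold change, nht1 minus wild type, on the y axis. The 146 called rises (red) reach 2.87 at osr1, the 46 called falls (blue) reach -2.72 at mfm1, a call that ended in all 4 fits that left out 1 library, and nht1 itself (open diamond) is not called.

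The 2 largest rises were neighbours on chromosome III that both encode dehydrogenases. The gene osr1 (SPCC663.06c, 1644754 to 1645876) had 239 and 338 CPM in the nht1 libraries, against 33.5 and 45.2 CPM in wild type. Its neighbour SPCC663.08c (1647689 to 1648808), a short chain dehydrogenase, had 119 and 162 CPM in the nht1 libraries, against 28.1 and 27.2 CPM in wild type. Both genes lie on the minus strand, 1812 bases apart, and in both the lower nht1 library was far above the higher wild-type library. Their log2 fold changes were 2.87 (SE 0.23) and 2.34 (SE 0.19), each at an edgeR adjusted p of 1.3e-06. No coding gene overlaps either of them.

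The next rises in size were in genes for an exonuclease, a transporter and a methyltransferase. SPBC609.01, of the Dis3-like exonuclease family, had 89.6 and 104 CPM in the nht1 libraries, against 20.2 and 21.4 CPM in wild type. The spermine transporter gene caf5, known from resistance to caffeine, had 264 and 310.2 CPM in the nht1 libraries, against 50.7 and 79.5 CPM in wild type. Both genes lie in the SPBC609 stretch of chromosome II, but no coding gene next to either was called. SPCC70.08c, annotated as a methyltransferase, had 260 and 360 CPM in the nht1 libraries, against 59.5 and 85.3 CPM in wild type. In these 3 genes the groups were well apart, and the log2 fold changes of 2.21 (SE 0.18), 2.14 (SE 0.22) and 2.10 (SE 0.19) had edgeR adjusted p-values of 1.3e-06, 1.64e-05 and 2.48e-06.

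A gene of meiosis, 1 of autophagy and 1 of the nuclear envelope followed. The meiotic recombination gene rec10, whose product is part of the chromosome axis in meiosis, had 63.2 and 69.5 CPM in the nht1 libraries, against 21.1 and 14.7 CPM in wild type (log2 fold change 1.89, SE 0.23). The autophagy gene atg1801 had 38.7 and 41.5 CPM in the nht1 libraries, against 11.2 and 11 CPM in wild type (1.85, SE 0.25). Each of these 2 overlaps another coding gene, rec10 with zip1 over 1.4% of its length and atg1801 with csr101 over 1.5%, and is uncertain to that extent. The gene nur1, whose product partners Lem2 at the inner nuclear membrane, had 28.9 and 24.4 CPM in the nht1 libraries, against 9.36 and 5.2 CPM in wild type. Its rise (log2 fold change 1.87, SE 0.32, edgeR adjusted p = 0.00242) did not pass without wild-type replicate 2 (adjusted p = 0.0618). Its partner gene lem2 had 40.6 and 52.7 CPM in the nht1 libraries, against 46.5 and 34.9 CPM in wild type, so that the groups overlapped. Of 24 tested genes on a list of meiotic transcripts, rec10 was the only call, with a median of -0.05. Of 15 tested nuclear envelope genes, nur1 was the only call, with a median of 0.15. Over all genes tested, 4.13% were called.

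Among the smaller rises that held in every such fit were lsk1 and med13, which act on transcription by RNA polymerase II. The gene lsk1, for a cyclin-dependent kinase that acts on the tail of RNA polymerase II, had 119.5 and 152 CPM in the nht1 libraries, against 55.6 and 52.6 CPM in wild type (log2 fold change 1.33, SE 0.19, at an edgeR adjusted p of 0.000403). The gene med13, for a subunit of the Mediator kinase module, had 87.1 and 95.7 CPM in the nht1 libraries, against 43.2 and 37.3 CPM in wild type (1.18, SE 0.17, edgeR adjusted p = 0.000444). The other genes of that module were looked at after these values were seen. The Med12 gene srb8 had 252 and 236 CPM in the nht1 libraries, against 143 and 151 CPM in wild type (0.73, edgeR adjusted p = 0.00639, 0.0676 to 0.0769 without nht1 replicate 1 or wild-type replicate 1). The cyclin C gene srb11 went the other way, with 62.6 and 61.1 CPM in the nht1 libraries, against 93.3 and 103 CPM in wild type (-0.66, edgeR adjusted p = 0.0249, 0.0771 to 0.186 without any 1 of the 4), and it overlaps trx2. The kinase gene srb10 had 16.7 and 16.4 CPM in the nht1 libraries, against 21.4 and 21.7 CPM in wild type and was not called. Thus 2 of the 4 module genes were called higher and 1 lower, beside 3.14% of all genes tested rising and 0.989% falling. The 2 include med13, whose rise prompted the look at the module. The protein kinase gene ppk31 had 101 and 113 CPM in the nht1 libraries, against 39.6 and 41.9 CPM in wild type (1.39, SE 0.17), and ecl1, named for an extended chronological lifespan, had 51.3 and 54.9 CPM against 18.1 and 23.2 CPM (1.36, SE 0.21). The ecl1 feature overlaps nnk1 over 1.7% of its length and is uncertain to that extent.

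Enzymes of varied roles made up most of the other rises that held in every such fit. The phosphoprotein phosphatase gene SPAC1039.02 had 393 and 411 CPM in the nht1 libraries, against 127 and 149.8 CPM in wild type (log2 fold change 1.54, SE 0.21). The cytosine deaminase gene SPCC965.14c had 99.1 and 97.1 CPM in the nht1 libraries, against 34.1 and 34.9 CPM in wild type (1.51, SE 0.22). The epimerase/dehydratase family gene SPBC2A9.02 had 739 and 703 CPM in the nht1 libraries, against 291 and 373 CPM in wild type (1.12, SE 0.14). In these 3 genes, which no coding gene overlaps, the libraries of each group lay close together beside the gap between the groups. Called noncoding features lie opposite SPCC965.14c (SPNCRNA.1286, 1.05) and SPBC2A9.02 (SPNCRNA.1565, 1.13). Reads of such a gene and its feature cannot be told apart where they overlap. SPCC777.03c, of the NifS cysteine desulfurase family, had 58.5 and 50.2 CPM in the nht1 libraries, against 17.2 and 14.7 CPM in wild type (1.77, SE 0.25). The methyltransferase gene efm3 had 57.9 and 62.5 CPM in the nht1 libraries, against 19 and 18.7 CPM in wild type (1.67, SE 0.22). The calcium pump gene pmc1 had 157 and 163 CPM in the nht1 libraries, against 74.9 and 77.9 CPM in wild type (1.06, SE 0.14). The last 3 overlap dip5, cps3 and cig2 and are uncertain as to gene.

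**Figure D2:**
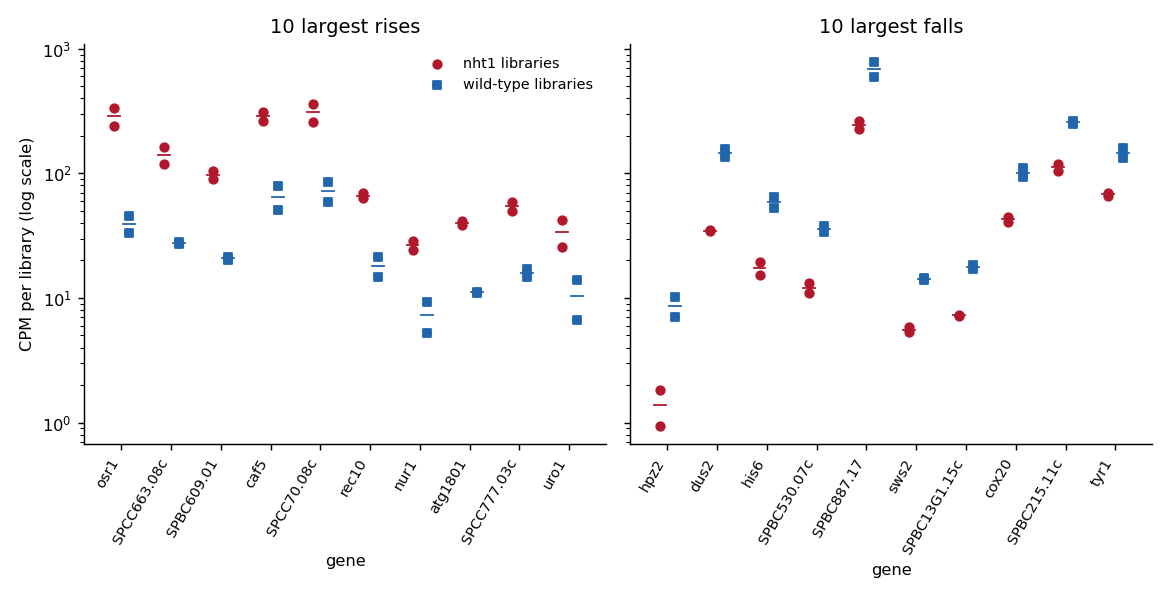
CPM of the 10 genes with the largest rises (left) and the 10 with the largest falls (right) that pass the rule for named genes, on a log axis, with 1 point per library and short lines at the group means. Red circles are the 2 nht1 libraries and blue squares the 2 wild-type libraries, and the groups do not overlap in any of the 20 genes, as the rule requires.

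The list with the highest median of the 37 examined holds targets of Pap1, the AP-1-like transcription factor that fission yeast uses against oxidants and drugs. Of its 18 tested members, 6 rose and 1 fell, and the median log2 fold change was 0.43, beside 0.02 over all genes tested and 3.14% of genes rising. The quinone oxidoreductase gene obr1 had 1260 and 1861 CPM in the nht1 libraries, against 459 and 603 CPM in wild type (log2 fold change 1.55, SE 0.17, at an edgeR adjusted p of 3.28e-05). The glutathione S-transferase gene gst2 had 963 and 1335 CPM in the nht1 libraries, against 352 and 504 CPM in wild type (1.42, SE 0.19, edgeR adjusted p = 0.000265). With caf5 they are the list's 3 largest changes, and in all 3 the lower nht1 library was above the higher wild-type library by a wide margin. The peroxiredoxin gene tpx1 had 757 and 814 CPM in the nht1 libraries, against 409 and 465 CPM in wild type (0.84, SE 0.15). The drug efflux gene bfr1 (0.72, SE 0.19) and the thioredoxin reductase gene trr1 (0.57, SE 0.14) rose less. The purine salvage gene apt1 fell, with 336 and 351 CPM in the nht1 libraries, against 497 and 668 CPM in wild type (-0.76, SE 0.15). The calls of caf5, obr1 and gst2 held in every fit that left out 1 library, while those of the other 4 ended in at least 1 such fit (edgeR adjusted p = 0.0532 to 0.355). The pap1 gene itself had 159 and 197 CPM in the nht1 libraries, against 179 and 152 CPM in wild type, and the catalase gene ctt1 114 and 126 CPM against 99.9 and 79.5 CPM.

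Promoters were searched for sites of Pap1 and of 8 other factors or families, in windows of 300 bases that run from 250 bases before the RefSeq start to 50 bases after it. The palindrome TTACGTAA, a Pap1 site, is in 24 of 5114 promoters (0.469%) and in 3 of the 146 genes that rose (2.05%), and in none of the 46 that fell. The 3 genes are obr1, the siderophore gene sib2 and cta3, for a cation pump, and their promoters are shown for this site, which stands in capitals. They run from base -250 to base -91 before the RefSeq start, read 5′ to 3′ on the gene's strand, and come from RefSeq build ASM294v3: obr1 from chrI:2095075-2095234 on the minus strand, sib2 from chrI:870543-870702 on the plus strand and cta3 from chrII:606983-607142 on the plus strand.
obr1: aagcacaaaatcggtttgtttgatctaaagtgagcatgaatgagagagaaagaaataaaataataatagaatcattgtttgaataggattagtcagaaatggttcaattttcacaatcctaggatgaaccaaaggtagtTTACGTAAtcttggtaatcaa
sib2: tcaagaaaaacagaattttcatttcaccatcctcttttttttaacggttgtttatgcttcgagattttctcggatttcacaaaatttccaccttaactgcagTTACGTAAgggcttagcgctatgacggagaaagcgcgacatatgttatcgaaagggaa
cta3: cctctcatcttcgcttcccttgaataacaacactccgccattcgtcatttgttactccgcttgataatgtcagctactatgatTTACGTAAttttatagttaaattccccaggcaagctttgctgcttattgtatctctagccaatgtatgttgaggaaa

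The site begins 111, 148 and 167 bases before the RefSeq start of obr1, sib2 and cta3. The starts in the annotation of the deposited tables lie 82, 53 and 19 bases upstream of those, so the site is nearer to them by as much. The 23 tested genes with this palindrome had a median log2 fold change of 0.07, and the other 20 of them were not called. The other Pap1 form, TTACTAA, was in 12.3% of the promoters of genes that rose, in 8.7% of those that fell and in 12% of all promoters. The 18 of 146 that rose include caf5, gst2, bfr1 and sib1, and the 4 of 46 that fell include apt1 and mfm1. For the motifs that follow, shares are in the same order. The core of the stress element CRE, TGACGT, was in 6.85%, 4.35% and 5.91%. The heat shock core GAANNTTC was in 15.8%, 6.52% and 11.1%, and the GATA site GATAAG in 9.59%, 17.4% and 11.6%. Each motif was searched on both strands, and each share is a description with no test. The genes osr1, SPCC663.08c, SPBC609.01 and SPCC70.08c held none of the 10 motifs searched in this window.

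The broader core stress list, of genes that rise under many stresses through the kinase Sty1, held 43 tested members, of which 6 rose and none fell, beside 3.14% of all genes rising. Log2 fold changes ran from -1.10 to 2.14 with a median of 0.21, beside 0.02 over all genes tested, and 30 of the 43 were above 0. An unadjusted p under 0.05 was found for 12 of them, beside 793 of all 4652 genes tested. In 20 members both nht1 libraries were above both wild-type libraries, beside 26.8% of all genes tested, and in 6 both were below, beside 21%. Of the 6 that rose, 3 (caf5, obr1, gst2) are also Pap1 targets. Of the others, the pyridoxal reductase gene plr1 had 1316 and 1461 CPM in the nht1 libraries, against 731 and 768 CPM in wild type (log2 fold change 0.89, SE 0.19). The cation pump gene cta3 had 67.6 and 63.7 CPM in the nht1 libraries, against 39.9 and 28.1 CPM in wild type (0.95, SE 0.20). The spore wall gene isp3 had 11.9 and 12 CPM in the nht1 libraries, against 4.23 and 4.59 CPM in wild type (1.43, SE 0.38). These 3 calls each ended without nht1 replicate 1, without nht1 replicate 2 and without wild-type replicate 2 (edgeR adjusted p = 0.0641 to 0.184), and those of plr1 and isp3 also under DESeq2 (adjusted p = 0.106 and 0.0792). Members that were not called include gpd1, for glycerol synthesis, with 349 and 360 CPM in the nht1 libraries against 413 and 432 CPM in wild type, and the trehalose synthase gene tps1 with 364 and 405 CPM against 325 and 339 CPM. Of 21 heat shock genes, hsp90 alone was called, at 3974 and 4503 CPM in the nht1 libraries, against 2840 and 3182 CPM in wild type (0.49, SE 0.13, edgeR adjusted p = 0.0335), and its call ended without any 1 of the 4 libraries (0.0917 to 0.315).

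A few genes for taking up and breaking down nitrogen compounds rose. Of 27 tested genes of the nitrogen starvation list, 4 rose and none fell, beside 3.14% of all genes rising, 22 had a log2 fold change above 0, and the median was 0.36. The uricase gene uro1, of purine breakdown, had 25.8 and 42.6 CPM in the nht1 libraries, against 6.64 and 14.1 CPM in wild type (log2 fold change 1.71, SE 0.34). The ammonium transporter gene amt1 had 78.6 and 85.1 CPM in the nht1 libraries, against 47.4 and 37.6 CPM in wild type (0.94, SE 0.19). In both genes the groups did not overlap, with a wide spread between the libraries of uro1. Also called were urg1, for a GTP cyclohydrolase (1.43, SE 0.39), and per1, for an amino acid permease (0.84, SE 0.23). All 4 calls ended in at least 2 of the fits that left out 1 library (edgeR adjusted p = 0.0576 to 0.402), and DESeq2 did not call urg1 (0.073) and per1 (0.0517). The meiotic regulator gene mei2, which nitrogen starvation induces, had 2.83 and 2.55 CPM in the nht1 libraries, against 6.95 and 7.03 CPM in wild type, and was not called. Proline breakdown belongs with this group: put1, for proline dehydrogenase, had 414 and 432 CPM in the nht1 libraries, against 211 and 242 CPM in wild type (0.90, SE 0.13, edgeR adjusted p = 0.000568), a call that held in every fit that left out 1 library. It overlaps SPCC70.04c and was picked after its values were seen.

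Of the glycolysis and fermentation genes, 6 rose. The list has 20 tested members, of which none fell, beside 3.14% of all genes rising, and 18 had a log2 fold change above 0, with a median of 0.42. The enolase gene eno101 had 15140 and 12340 CPM in the nht1 libraries, against 9381 and 7810 CPM in wild type (log2 fold change 0.68, SE 0.14). The phosphoglycerate kinase gene pgk1 had 17710 and 18530 CPM in the nht1 libraries, against 12760 and 13220 CPM in wild type (0.48, SE 0.11). The alcohol dehydrogenase gene adh1 had 5042 and 5273 CPM in the nht1 libraries, against 3511 and 3433 CPM in wild type (0.57, SE 0.13). In each of them both nht1 libraries were above both wild-type libraries. The other rises were gpd3 (0.94), adh4 (0.66) and pgi1 (0.52). All 6 calls ended in at least 2 of the fits that left out 1 library (edgeR adjusted p = 0.0532 to 0.215), and all 6 held under DESeq2. The second enolase gene, eno102, had 12 and 7.27 CPM in the nht1 libraries, against 20.8 and 18.9 CPM in wild type and was not called.

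Enzymes that transfer electrons or amino groups were grouped by product name, after the values were seen. Of 163 tested genes with dehydrogenase, reductase or oxidoreductase in the product, 20 rose and 3 fell, beside 3.14% and 0.989% of all genes, with a median of 0.25. Besides osr1, SPCC663.08c and obr1, the NADP-dependent oxidoreductase gene SPAPB24D3.08c had 809 and 874 CPM in the nht1 libraries, against 362 and 429 CPM in wild type (log2 fold change 1.09, SE 0.15, at an edgeR adjusted p of 0.000265). The NADPH dehydrogenase gene SPAC5H10.10 had 335 and 319 CPM in the nht1 libraries, against 163 and 186 CPM in wild type (0.91, SE 0.14), and it overlaps gmh1. Of the 23 calls, 10 held in every fit that left out 1 library, and the other 13 ended in at least 1 (edgeR adjusted p = 0.0532 to 0.259). The word aminotransferase, mostly used for enzymes that move amino groups between carbon skeletons, does not alone show that role. Of 15 tested genes with this word in the product, 6 rose and none fell, beside the same shares of all genes, with a median of 0.44. Among them were eca39, for branched-chain amino acids (0.55), ser1, for serine (0.52), and sno1, a glutamine aminotransferase subunit (0.70), and all 6 calls ended in at least 1 such fit (0.0573 to 0.297). Counts for the other product words examined were 7 up and 2 down of 168 for transporter, 8 up and 1 down of 198 for kinase, 6 up and 1 down of 144 for transcription, and 4 up and 1 down of 81 for methyltransferase. They were 2 up and 2 down of 12 for permease, 3 up and 1 down of 24 for mediator, and 0 up and 4 down of 55 for RNA polymerase. The rises under mediator include sfr1, a DNA recombination mediator that is not part of the Mediator complex, and it overlaps mdm12 and hrd3.

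**Figure D3:**
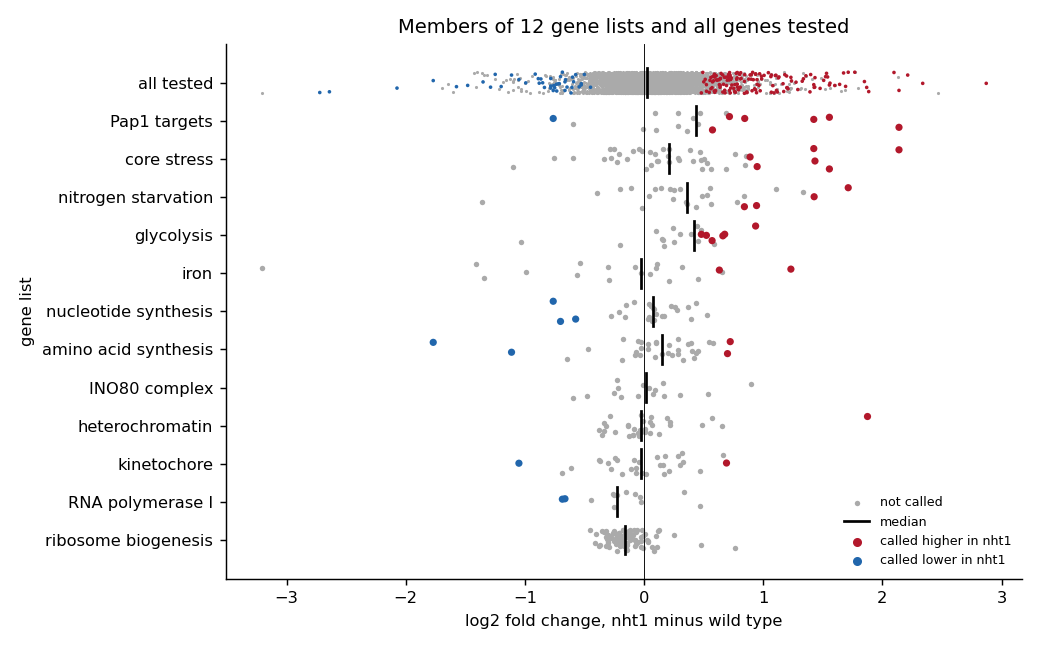
Log2 fold changes, nht1 minus wild type, of the tested members of 12 gene lists and, in the top row, of all 4652 genes tested. Red and blue points are called rises and falls, grey points are not called, and the black bar is the median, which is 0.43 for Pap1 targets, 0.42 for glycolysis and -0.16 for ribosome biogenesis.

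In the iron list, the called genes were 2 that make the iron carrier ferrichrome. Of 19 tested, these 2 rose and none fell, beside 3.14% of all genes rising, with a median of -0.03. The divergent neighbours sib1 and sib2, which encode the ferrichrome synthetase and the ornithine monooxygenase of this pathway and start 1035 bases apart, both rose. The sib2 gene had 63.5 and 54.2 CPM in the nht1 libraries, against 25.1 and 25.1 CPM in wild type (log2 fold change 1.23, SE 0.21, edgeR adjusted p = 0.00228, 0.055 without nht1 replicate 1). The sib1 gene had 807 and 670 CPM in the nht1 libraries, against 489.5 and 463 CPM in wild type (0.63, SE 0.13, edgeR adjusted p = 0.00936, 0.101 to 0.134 without nht1 replicate 1 or wild-type replicate 2). The multicopper oxidase gene fio1 of iron import had 46.9 and 42.6 CPM in the nht1 libraries, against 142 and 85.3 CPM in wild type (-1.34, SE 0.37, edgeR adjusted p = 0.0527). Its permease partner fip1 had 9.44 and 13.1 CPM in the nht1 libraries, against 35.9 and 23.5 CPM in wild type (-1.41, SE 0.42, edgeR adjusted p = 0.0703), and the reductase gene frp1 had 10.7 and 17.5 CPM against 28.4 and 27.2 CPM (-0.99, SE 0.30, edgeR adjusted p = 0.0682). In these 3 import genes both nht1 libraries were below both wild-type libraries, but none passed the test. That order held for 8 of the 19 members and the opposite order for 5, beside 21% and 26.8% of all genes tested. The lowest log2 fold change of the list was -3.21, in a member that was not called. The repressor gene fep1, which represses both kinds of gene when iron is plentiful, had 64.5 and 89.5 CPM in the nht1 libraries, against 65.5 and 66.9 CPM in wild type.

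Some called genes lie next to each other on the chromosome. Of the 192 called genes, 33 (17.2%) fall into 14 runs of neighbouring called genes, of which 11 held only rises, 3 held both directions and none held only falls. Rises were 146 of the 192 calls, so runs of rises alone are the likelier kind. With 4.13% of all genes tested called, some calls would be neighbours without any link, and an excess of runs was not tested. Of the 19 junctions within runs, 9 were tandem, 7 convergent and 3 divergent, and 4 runs hold genes that overlap each other. Where no gene overlaps, the pair osr1 and SPCC663.08c and the convergent pair osr2 and gst2 on chromosome III, with 42 bases between them, were the ones in which both calls held in every fit that left out 1 library. The potassium channel subunit gene osr2 had 366 and 301 CPM in the nht1 libraries, against 129 and 125 CPM in wild type (log2 fold change 1.40, SE 0.16, edgeR adjusted p = 4.98e-05), close to the change of gst2. A run of 4 on chromosome II holds SPBC1271.10c, tgp1, SPBC1271.08c and SPBC1271.07c. The N-acetyltransferase gene SPBC1271.07c had 319 and 420 CPM in the nht1 libraries, against 107 and 137 CPM in wild type (1.60, SE 0.17, edgeR adjusted p = 1.74e-05). The gene tgp1, for a glycerophosphodiester transporter that cells use when phosphate is short, had 43.4 and 40.7 CPM in the nht1 libraries, against 25.1 and 17.7 CPM in wild type (0.97, SE 0.24), and the transporter gene SPBC1271.10c fell (-0.65, SE 0.17). SPBC1271.10c overlaps tgp1, and SPBC1271.07c overlaps SPBC1271.08c over 0.7% of its length, so these are uncertain where they overlap. Of 12 phosphate genes tested, tgp1 was the only one called, beside 4.13% of all genes. Of the 33 genes in runs, 27 lost their call in at least 1 fit that left out 1 library (edgeR adjusted p = 0.0523 to 0.404).

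**Figure D4:**
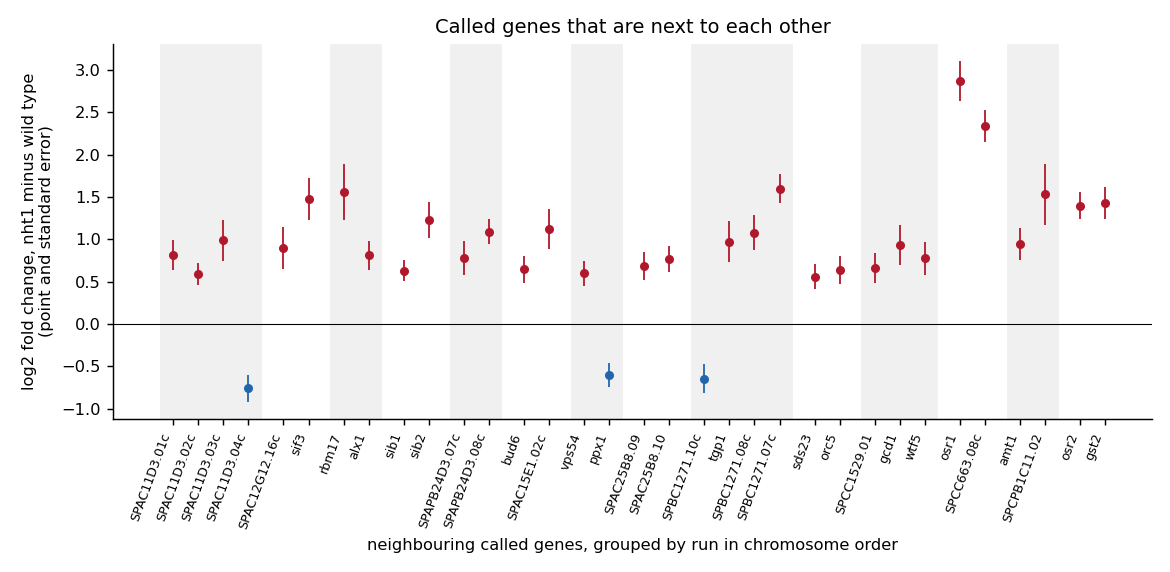
Log2 fold change, nht1 minus wild type, with its standard error for the 33 called genes that lie in 14 runs of neighbours, in chromosome order, with alternate runs shaded. The pair osr1 and SPCC663.08c stands highest, at 2.87 and 2.34, and 3 runs hold 1 fall each beside their rises.

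Of the 46 falls, 10 held in every fit that left out 1 library. The largest of these was dus2, for a tRNA dihydrouridine synthase, with 35.2 and 34.2 CPM in the nht1 libraries, against 135 and 157 CPM in wild type (log2 fold change -2.07, SE 0.18, edgeR adjusted p = 1.8e-06). No coding gene overlaps it, and the 2 nht1 libraries were close together. Of 22 tRNA modification genes tested, dus2 fell and the list's member mod5 rose, at 119 and 123 CPM in the nht1 libraries against 77.6 and 81.3 CPM in wild type (0.61, edgeR adjusted p = 0.0249, 0.115 to 0.18 without any 1 of the 4 libraries). The product given for that gene is a Tea1-anchoring protein of cell polarity, and its place in the list rests on a shared symbol, and it overlaps prt1. The low-count gene hpz2 had 0.944 and 1.82 CPM in the nht1 libraries, against 10.3 and 7.03 CPM in wild type (-2.64, SE 0.58), and its call ended in 3 of the 4 fits (edgeR adjusted p = 0.0784 to 0.16). Of 35 amino acid synthesis genes tested, 2 fell and 2 rose. For this list and the tRNA modification list, the shares over all genes tested were 0.989% falling and 3.14% rising. The histidine gene his6 had 15.4 and 19.3 CPM in the nht1 libraries, against 52.8 and 65.1 CPM in wild type (-1.77, SE 0.24), and the tyrosine gene tyr1 70.14 and 65.5 CPM in the nht1 libraries, against 133 and 160 CPM (-1.11, SE 0.17). Both overlap other coding genes. The arginine genes arg3 (0.72, SE 0.16) and arg4 (0.70, SE 0.17) rose, and their calls ended in at least 2 of the fits that left out 1 library (0.125 to 0.271).

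Other falls were in transport, respiration and the centromere. The transporter gene SPBC887.17 had 265 and 227 CPM in the nht1 libraries, against 782 and 590.3 CPM in wild type (log2 fold change -1.48, SE 0.15, edgeR adjusted p = 1.74e-05), and it overlaps hfi1. The 5-oxoprolinase gene SPAC11D3.15, of glutathione breakdown, had 149 and 143 CPM in the nht1 libraries, against 268 and 269 CPM in wild type (-0.88, SE 0.13, edgeR adjusted p = 0.000516). The libraries of each group lay close together in this gene. The aldo/keto reductase gene SPBC215.11c had 119.5 and 104 CPM in the nht1 libraries, against 250.3 and 263 CPM in wild type (-1.20, SE 0.14, edgeR adjusted p = 6.25e-05). The gene cox20, which helps assemble cytochrome oxidase, had 44.4 and 41.1 CPM in the nht1 libraries, against 93.6 and 110 CPM in wild type (-1.25, SE 0.18, edgeR adjusted p = 0.000444). It was the only call among 43 respiration genes, whose median was 0.13, beside 4.13% of all genes called. The centromere gene cnp3, the fission yeast CENP-C, had 67.3 and 65.1 CPM in the nht1 libraries, against 137 and 138 CPM in wild type (-1.05, SE 0.17, edgeR adjusted p = 0.0013). Of 30 kinetochore genes tested, cnp3 fell and ams2, a GATA-type factor of histone gene expression, rose, with a list median of -0.03. Over all genes tested, 0.989% fell and 3.14% rose. The centromeric histone gene cnp1 had 7.23 and 6.55 CPM in the nht1 libraries, against 7.25 and 9.78 CPM in wild type. Larger falls at lower levels were those of SPBC530.07c, of the TENA/THI family, with 11 and 13.1 CPM in the nht1 libraries against 37.7 and 33.9 CPM in wild type (-1.57, SE 0.32), and of the mitochondrial ribosomal protein gene sws2, with 5.35 and 5.82 CPM against 14.5 and 14.1 CPM (-1.35, SE 0.36). SPBC13G1.15c, uncharacterized, had 7.23 and 7.27 CPM in the nht1 libraries, against 17.2 and 18.3 CPM in wild type (-1.29, SE 0.33). The calls of these 3 ended in at least 3 of the 4 fits (edgeR adjusted p = 0.068 to 0.205), that of sws2 also ended under DESeq2 (0.0698), and sws2 and SPBC13G1.15c overlap vid21 and ash2. The rise of ams2 (0.69, SE 0.18, edgeR adjusted p = 0.0391) ended in 3 of the 4 fits (0.175 to 0.28).

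A few factors of the transcription machinery fell. The gene prf1, of the Paf1 complex that travels with RNA polymerase II, had 179 and 170 CPM in the nht1 libraries, against 302 and 393 CPM in wild type (log2 fold change -0.99, SE 0.15, at an edgeR adjusted p of 0.000516). The elongation factor gene tfs1, for TFIIS, had 49.7 and 51.3 CPM in the nht1 libraries, against 83.6 and 96.6 CPM in wild type (-0.84, SE 0.17), and it overlaps dsc3. Of 13 RNA polymerase I genes tested, 2 fell and none rose, beside 0.989% of all genes falling, with a median of -0.22 and 11 values below 0. They were spp27, with 142 and 161 CPM in the nht1 libraries against 254.5 and 232 CPM in wild type (-0.69, SE 0.15), and rrn10, with 43.1 and 49.1 CPM against 70.05 and 75.8 CPM (-0.66, SE 0.18), both of the upstream activation factor of ribosomal DNA. The calls of tfs1, spp27 and rrn10 ended in at least 3 of the fits that left out 1 library (edgeR adjusted p = 0.0666 to 0.253). Of 92 ribosome biogenesis genes tested, none was called by edgeR, and 13 had an unadjusted p under 0.05, beside 793 of all 4652 genes tested. In this list 79 genes had a log2 fold change below 0, with a median of -0.16. Of 26 nucleotide synthesis genes, 3 fell, beside 0.989% of all genes, namely apt1, the folate enzyme gene ade9 and the adenosine kinase gene ado1. The ade9 gene had 577 and 563 CPM in the nht1 libraries, against 933 and 921 CPM in wild type (-0.70, SE 0.12, edgeR adjusted p = 0.0022) and overlaps crs1, and ado1 had 321 and 329 CPM against 459 and 509 CPM (-0.57, SE 0.13). The calls of apt1 and ado1 ended in 3 of the 4 fits (0.0674 to 0.147), and the median of the list was 0.07.

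Calls in the lists of chromatin genes are set beside the 4.13% of all genes called. Counts of genes with an unadjusted p under 0.05 are set beside 793 of the 4652 genes tested. Of 16 INO80 genes tested, none was called by edgeR and 3 had an unadjusted p under 0.05. They ran from nht1 at -0.60 to iec3 at 0.90. The subunit gene iec3 had 19.2 and 14.2 CPM in the nht1 libraries, against 11.2 and 6.73 CPM in wild type (edgeR adjusted p = 0.212). The ATPase gene ino80 had 259 and 210.2 CPM in the nht1 libraries, against 193 and 130.2 CPM in wild type (log2 fold change 0.54, SE 0.18, edgeR adjusted p = 0.113), and it overlaps set2. The subunit gene iec1 had 39 and 56.4 CPM in the nht1 libraries, against 40.5 and 36.4 CPM in wild type. Of 35 heterochromatin genes, nur1 was the only one called, and the median was -0.02. The H3K9 methyltransferase gene clr4 had 61.7 and 62.9 CPM in the nht1 libraries, against 62.5 and 61.1 CPM in wild type (0.01, SE 0.19). The HP1 gene swi6 had 173 and 160.0 CPM in the nht1 libraries, against 185 and 180.4 CPM in wild type (-0.13, SE 0.14). Of 11 histone and 11 RNAi genes, edgeR called none, with 0 and 3 at an unadjusted p under 0.05. Of 25 genes of other remodellers, rsc1, of the RSC complex, rose, with 93.4 and 99.7 CPM in the nht1 libraries against 55.9 and 61.8 CPM in wild type (0.71, SE 0.16), a call that ended without any 1 of the 4 libraries (edgeR adjusted p = 0.0801 to 0.152). Of 57 tested subtelomeric genes, those up to 100 kb from an end of chromosome I or II, isp3 and gal7 rose and SPBPB10D8.02c fell, with a median of 0.15. The galactose gene gal7 had 29.9 and 28.4 CPM in the nht1 libraries, against 13.9 and 7.64 CPM in wild type (1.43, SE 0.35), and all 3 subtelomeric calls ended in at least 3 of the fits (0.0628 to 0.281).

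Noncoding features had values close to those of the coding genes they overlap. Of 1096 tested, 58 (5.29%) rose and 14 (1.28%) fell, 72 (6.57%) in all, and the median log2 fold change was 0.02. Of 732 tested features that lie opposite a coding gene, 54 (7.38%) were called, and in 41 of these 54 an overlapped coding gene was called in the same direction. Of 220 that overlap a coding gene on its own strand, 11 (5%) were called. The largest rises were SPNCRNA.1585 opposite caf5, SPNCRNA.560 opposite atg1801 and SPNCRNA.1292 opposite SPCC70.08c. SPNCRNA.1585 had 151 and 184 CPM in the nht1 libraries, against 31.1 and 44.3 CPM in wild type (log2 fold change 2.15, SE 0.21), beside 2.14 for caf5. SPNCRNA.560 had 33.6 and 35.3 CPM in the nht1 libraries, against 7.55 and 7.95 CPM in wild type (2.15, SE 0.27), beside 1.85 for atg1801. SPNCRNA.1292 had 285 and 401.5 CPM in the nht1 libraries, against 69.8 and 95.1 CPM in wild type (2.06, SE 0.17), beside 2.10 for SPCC70.08c. Over the 338 features with most of their length inside 1 coding gene, the correlation of log2 fold changes with that gene was r = 0.912 across features, which share reads and libraries and are not independent. The calls of these 3 features held in every fit that left out 1 library.

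The next rises were SPNCRNA.1210 opposite SPCC777.03c and SPNCRNA.1213 opposite SPCC663.08c. SPNCRNA.1210 had 59.1 and 50.5 CPM in the nht1 libraries, against 17.8 and 14.7 CPM in wild type (log2 fold change 1.75, SE 0.24). SPNCRNA.1213 had 144 and 182 CPM in the nht1 libraries, against 51.6 and 49.5 CPM in wild type (1.69, SE 0.17), beside 2.34 for SPCC663.08c. Falls also lay opposite called genes. SPNCRNA.610 had 33 and 34.9 CPM in the nht1 libraries, against 73.4 and 63.9 CPM in wild type (-1.01, SE 0.21), beside -0.88 for SPAC11D3.15. SPNCRNA.1041 had 169 and 143 CPM in the nht1 libraries, against 275 and 289 CPM in wild type (-0.85, SE 0.15), beside -0.85 for the urease gene ure2. The calls of these 4 held in every fit that left out 1 library. SPNCRNA.1672 opposite cnp3 had 2.52 and 1.45 CPM in the nht1 libraries, against 9.66 and 6.73 CPM in wild type (-2.00, SE 0.57), and SPNCRNA.802 opposite hpz2 had 0.629 and 2.18 CPM against 9.96 and 7.03 CPM (-2.61, SE 0.64). SPNCRNA.1168 lay opposite naa40, which was not called (-0.79). SPNCRNA.1168 had 14.1 and 16.7 CPM in the nht1 libraries, against 31.7 and 35.8 CPM in wild type (-1.13, SE 0.25). The calls of these last 3 ended without nht1 replicate 1 and, for SPNCRNA.1672 and SPNCRNA.802, without other single libraries too (edgeR adjusted p = 0.087 to 0.24).

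**Figure D5:**
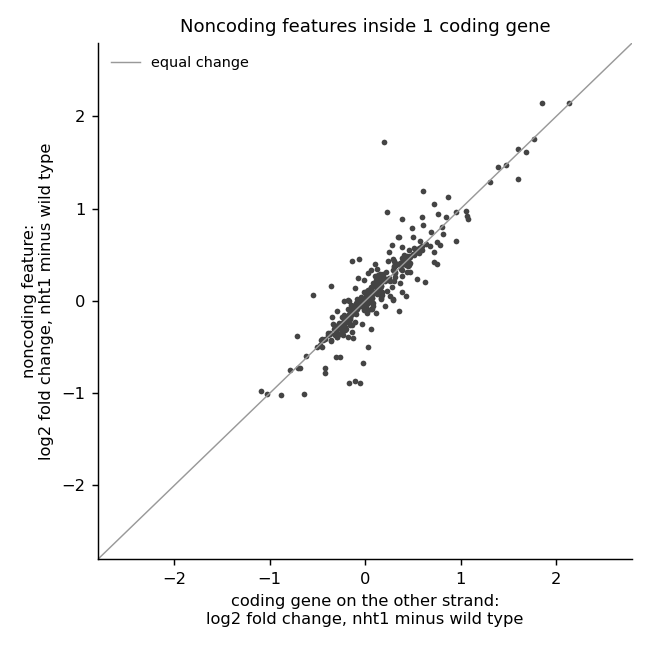
Log2 fold change, nht1 minus wild type, of 338 noncoding features (y axis) against that of the coding gene on the other strand that holds at least 80% of their length (x axis). Most points lie along the grey line of equal change, with r = 0.912.

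The features that overlap no coding gene carry the noncoding changes that can be read on their own. Of 144 tested, 5 rose (3.47%) and 2 fell (1.39%), 4.86% together, with a median of -0.17. Adjusted over these 144 alone, 6 were called (4.17%). SPNCRNA.1153 (chromosome III, 717659 to 718923) had 121 and 121 CPM in the nht1 libraries, against 51.6 and 57.8 CPM in wild type (log2 fold change 1.14, SE 0.20, edgeR adjusted p = 0.000574). It lies 2223 bases from the divergent drug efflux gene bfr1, which also rose, and 2864 bases from wee1, the gene of a cell cycle kinase, which was not called (0.15, adjusted p = 0.791). Its call was the only one of the 7 that held in every fit that left out 1 library. The feature ncRNA.1343 (SPNCRNA.1343, chromosome II, 354031 to 355573) had 73.9 and 112 CPM in the nht1 libraries, against 37.4 and 59.6 CPM in wild type (0.93, SE 0.21, edgeR adjusted p = 0.00654). It lies in the gap between tgp1 and SPBC1271.08c, which both rose, 1619 and 406 bases away. In it the groups stood apart by less than the libraries of a group differed, and the call ended without nht1 replicate 2 or wild-type replicate 1 (0.135 to 0.228). SPNCRNA.435 had 0 and 2 counts in the nht1 libraries, against 21 and 12 counts in wild type, and its call ended without nht1 replicate 1 or wild-type replicate 1 (0.14 to 0.201). The other 4 were SPNCRNA.738, SPNCRNA.1161 and SPNCRNA.1094, which rose, and SPNCRNA.1600, which fell. DESeq2 did not call 5 of the 7.

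Against the iec5 libraries, few genes were called. Of the 4652 genes, 20 (0.43%) were higher in nht1 than in iec5 and 5 (0.107%) were lower, 25 (0.537%) in all. The iec5 gene had 12.3 and 16 CPM in the nht1 libraries, against 3.29 and 1.46 CPM in iec5 and 12.4 and 12.8 CPM in wild type. These comparisons use the same nht1 libraries as the one with wild type, so the values are set side by side. The kinase gene ppk31 had 101 and 113 CPM in the nht1 libraries, against 42.5 and 37.3 CPM in iec5 and 39.6 and 41.9 CPM in wild type, and nht1 exceeded iec5 by 1.42 (SE 0.17, edgeR adjusted p = 0.000401). The kinase gene lsk1 had 119.5 and 152 CPM in the nht1 libraries, against 65.6 and 47.2 CPM in iec5 and 55.6 and 52.6 CPM in wild type, a difference of 1.27 to iec5 (SE 0.19, edgeR adjusted p = 0.00245). In these 2 genes the iec5 libraries lay near wild type. The centromere gene cnp3 had 67.3 and 65.1 CPM in the nht1 libraries, against 127 and 173.5 CPM in iec5 and 137 and 138 CPM in wild type (nht1 minus iec5 -1.18, SE 0.17, edgeR adjusted p = 0.0021). The Paf1 complex gene prf1 had 179 and 170 CPM in the nht1 libraries, against 302 and 341 CPM in iec5 and 302 and 393 CPM in wild type (nht1 minus iec5 -0.88, SE 0.15, edgeR adjusted p = 0.00615). For caf5 the iec5 libraries, at 97.2 and 136 CPM, lay between the nht1 libraries at 264 and 310.2 CPM and wild type at 50.7 and 79.5 CPM (nht1 minus iec5 1.30, SE 0.21, edgeR adjusted p = 0.00429). The largest difference was in gdt1, which had 25 and 22 counts in the nht1 libraries, against no counts in iec5 and 26 and 20 counts in wild type. The flavin oxidoreductase gene SPBC23G7.10c had 28.6 and 37.8 CPM in the nht1 libraries, against 1.65 and 4.08 CPM in iec5 and 13.0 and 18.7 CPM in wild type (nht1 minus iec5 3.48, SE 0.39, edgeR adjusted p = 0.00038). Without nht1 replicate 2 the cnp3 call against iec5 ended (edgeR adjusted p = 0.0768), and that of prf1 ended in 3 of the 4 fits that left out 1 library (0.0753 to 0.174). The number of calls against iec5 was 11 without nht1 replicate 1, 4 without nht1 replicate 2 and 15 without either iec5 library.

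Against the libraries labelled iec1, 1 gene (0.0215%) was higher in nht1 and 6 (0.129%) were lower, 7 (0.15%) in all. The iec1 gene did not mark that deletion, with 39 and 56.4 CPM in the nht1 libraries, against 95.4 and 88.4 CPM in the iec1 libraries and 40.5 and 36.4 CPM in wild type, so each iec1 value below is that of a label. The methyltransferase gene SPCC70.08c had 260 and 360 CPM in the nht1 libraries, against 700.5 and 803 CPM in iec1 and 59.5 and 85.3 CPM in wild type, so that nht1 lay between the other 2 groups (nht1 minus iec1 -1.28, SE 0.17, edgeR adjusted p = 0.00399). The same order held for ppk31, at 101 and 113 CPM in the nht1 libraries, against 249 and 209 CPM in iec1 and 39.6 and 41.9 CPM in wild type (-1.10, SE 0.15, edgeR adjusted p = 0.00399). It held for SPBC609.01 too, at 89.6 and 104 CPM in the nht1 libraries, against 189 and 186 CPM in iec1 and 20.2 and 21.4 CPM in wild type (-0.96, SE 0.15, edgeR adjusted p = 0.0106). The transporter gene SPBC887.17 was the 1 higher in nht1, at 265 and 227 CPM, against 129 and 148 CPM in iec1 and 782 and 590.3 CPM in wild type (0.83, SE 0.16, edgeR adjusted p = 0.0446). The survivin gene bir1, of the chromosomal passenger complex, had 71.1 and 73.5 CPM in the nht1 libraries, against 146 and 160.3 CPM in iec1 and 43.8 and 33.0 CPM in wild type (-1.09, SE 0.18), and it overlaps tcb1. Of these calls against iec1, that of SPCC70.08c ended without nht1 replicate 1 (edgeR adjusted p = 0.302), those of ppk31 and SPBC609.01 without either nht1 library (0.0971 to 0.485), and those of SPBC887.17 and bir1 in 3 of the 4 fits (0.0543 to 0.58). No gene was called against iec1 without nht1 replicate 1 and 1 was called without nht1 replicate 2. In the fit with those 2 groups alone 24 genes were called.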

How the data were processed

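Each group of 2 libraries was taken from the labels. Raw counts per feature were deposited by the authors in 1 coding and 1 noncoding table. Per the submitters' processing notes, HISAT2 2.1.0, build ASM294v2, featureCounts 1.6.1 and DESeq2 1.28.0 were used. The coding table matched RefSeq ASM294v3 for 5115 of 5137 features, used for symbols, products and promoters.

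Counts were tested with edgeR 4.0.16 in R 4.3.3 (TMM, default low-count filter, 1 fit of 8 libraries, quasi-likelihood F test, Benjamini-Hochberg adjustment). Noncoding counts were scaled by the totals and TMM factors of the coding ones. A standard error is the absolute log2 fold change divided by the root of F. Fits that left out a library kept the same genes, so a lone library was assumed to vary like the other groups. Alternatives were DESeq2 1.42.0, RLE scaling, no filter, a replicate block, 2 groups only and a log2 fold change of at least 1. The tests were checked on simulated data.

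Named genes were nht1, the 20 largest rises and falls with mean log2 CPM above 2 and groups that do not overlap, the 10 largest noncoding each way, up to 4 called members per list, genes in runs and the 5 largest each way against iec5 and iec1. Other genes were added after their values were seen. The members and the 37 gene lists (926 symbols, 37 of them unmatched) were chosen with earlier results of these data known. Tables and figures used Python 3.11.15, pandas 2.3.3, numpy 2.4.6 and matplotlib 3.10.9.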

Additional observations from a re-analysis of the deposited data

How the results depend on the processing

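The 192 coding calls became 356 with a replicate block, 66 with a log2 fold change of at least 1, and 52 to 90 without 1 library. The replicate numbers are not shown by the labels to pair libraries, and the differences between replicates correlated at r = 0.153 between nht1 and wild type. The 72 noncoding calls became 115 with the block, 42 in a fit of 2 groups, 44 with DESeq2, 28 with the fold minimum, 6 among features overlapping no coding gene tested alone and 33 to 50 without 1 library. The 25 calls against iec5 became 53 with the block, 11 with the fold minimum and 4 to 15 without 1 library. The 7 calls against iec1 became 25 with the block, 24 with 2 groups, 18 with DESeq2, 4 with the fold minimum and 0 to 8 without 1 library. The 49 different genes called in the gene lists became 95 with the block and 15 to 29 without 1 library. The cause was not tested, beyond fewer libraries or features in those fits. Scaling by RLE (194 coding calls), no filter (195), 2 groups (226), DESeq2 (203) and genes overlapping no other (133) stayed within 1.5 times the coding count. The rises and falls behind these totals were 146 and 46 as reported, 133 and 61 with RLE, 139 and 64 with DESeq2, and 156 and 70 with 2 groups, so that falls moved by over 1.5 times in the last. Both tests of features without overlap were chosen after the data were seen. Of 131 named results, DESeq2 ended 11, the fit of 2 groups 8 and RLE 2, the block ended none, and no direction reversed. Of 95 named coding results, 27 held without any 1 library. With 2 libraries a group, a call that ended is not shown to be absent, and low-count genes such as hpz2 are the least certain.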
